A study of Homo sapiens with 12 samples.

Results

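Levels of the transcripts of 10 regulators of the first gap phase of the cell cycle (G1) were read in 3 human prostate cell lines. The members are RB1, CDKN2A, CDKN2B, CDKN1B, CCND1, CCND2, CCNE1, CDK4, CDK6 and E2F1, and were taken by gene name from a deposited table of 58302 genes, which held a row for each of the 10. The study sequenced RNA to find genes that differ between a benign prostate line and prostate cancer (PCa) lines, with 4 libraries of BPH-1 (benign), 4 of DU145 and 4 of PC3 (both PCa). The labels give each line as wild type, with no treatment, and total RNA was isolated from cells in culture. BPH-1 is a benign prostate epithelial line immortalised with the large T antigen of a simian virus, a protein that binds the retinoblastoma protein. DU145 and PC3 were established from metastases of PCa, and DU145 is known for lacking a working retinoblastoma protein. Each group is 1 established line, and no label says that its 4 libraries came from separate cultures, so that every p-value here measures the spread between libraries, which may be technical.

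The libraries held between 12950664 and 16309560 reads. The 4 basal epithelial markers (KRT5, KRT14, KRT15 and TP63) summed to between 299 and 427 FPKM (reads per length of the gene and per depth of the library) in BPH-1, to at most 1.16 in DU145 and to at most 2.43 in PC3. Of the 6 general epithelial markers, 6 had a mean over 1 FPKM in BPH-1, 5 in PC3 and 4 in DU145, where CDH1 (at most 0.297) and EPCAM (at most 0.573) were near 0. Stromal markers summed to at most 4.13 FPKM in any library, and KLK3 was listed at 0 throughout. Immune and endothelial markers summed to at most 15.1, in PC3 replicate 3, where CD68 alone had 12.8. The DU145 libraries fell into pairs in some of these markers. PTPRC, a marker of blood cells, had 1.35 and 1.25 FPKM in replicates 1 and 2, within the 1.15 to 1.54 of BPH-1, and was listed at 0 in replicates 3 and 4 and throughout PC3. PECAM1 (0.198 and 0.224 against 0) split DU145 the same way, and had 0.130 to 0.179 FPKM in BPH-1 and 1.19 to 2.28 in PC3. DCN (0.373 and 0.214 in replicates 3 and 4) and COL1A2 (0.133 and 0.135) split DU145 the other way, both at 0 in replicates 1 and 2. What sets these pairs apart was not tested, so the members were also compared with either pair of DU145 alone. The libraries also differed in base composition. Genes with a GC content under 40% took between 8.63 and 9.81% of the reads in the 4 BPH-1 libraries, between 1.50 and 4.40% in the DU145 libraries and between 1.76 and 3.92% in the PC3 libraries. This moved with the comparison of either cancer line with BPH-1, so each member is given as deposited and, where it moved by over 1.5 times or a call changed, also after a correction (GC-corrected). The correction fits how FPKM depends on the GC content of genes in each library. It divides out where that trend departs from the mean trend of all libraries. The mean trend stays in, so corrected values compare lines and are not levels free of GC content. In bulk RNA, fewer cells that use a gene and less of its RNA per cell cannot be told apart.

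In G1 a cell decides whether to copy its DNA. D-type cyclins (CCND1, CCND2, CCND3) bind the kinases CDK4 and CDK6 and phosphorylate the retinoblastoma protein, which then lets go of E2F transcription factors, and these switch on CCNE1 and the genes of DNA synthesis. The INK4 proteins, among them the products of CDKN2A and CDKN2B, block CDK4 and CDK6, while p27, the product of CDKN1B, blocks the cyclin E kinase, and the locus of CDKN2A also gives ARF, which holds back MDM2.

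Of the 10 members, 8 differed between PC3 and BPH-1 at an adjusted p under 0.05 in limma (2 higher and 6 lower in PC3), where 67.6% of the 16408 genes tested were called, 27.1% higher and 40.4% lower. Between DU145 and BPH-1, 6 of the 10 differed (2 higher and 4 lower in DU145), against 62.7% of 17016 genes, 30.3% higher and 32.4% lower. Between PC3 and DU145, CCND2 was under the read minimum and 5 of the other 9 members differed (2 higher and 3 lower in PC3), against 48.3% of 16420 genes, 20.0% higher and 28.3% lower. These are 80, 60 and 55.6% of the members tested, near the share of all genes, so that the counts alone say nothing particular of the members. After GC correction, 8 members differed between DU145 and BPH-1, 1 higher and 7 lower. Over all genes, 10616 of 17016 then differed, 5524 higher and 5092 lower. The corrected counts were 8 members in PC3 against BPH-1 (10414 of 16408 genes) and 6 in PC3 against DU145 (9639 of 16420). With DU145 replicates 1 and 2 alone, 7 members differed from BPH-1 (9494 of 17834 genes) and 5 from PC3 (7060 of 17245). All 10 members were tested in the latter, where CCND2 was called lower in PC3 and CCNE1 lost its call. With replicates 3 and 4 alone, 6 and 4 did (9813 of 17874 and 6448 of 17146 genes). RB1, CCND2 and CDK6 were lower and CCND1 and E2F1 higher in both cancer lines than in BPH-1, CDKN2A, CDKN1B and CCNE1 were called lower in PC3, and CDKN2B was called lower in DU145. Since BPH-1 serves both cancer lines as control, the 2 comparisons with it share those 4 libraries.

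**Figure D1:**
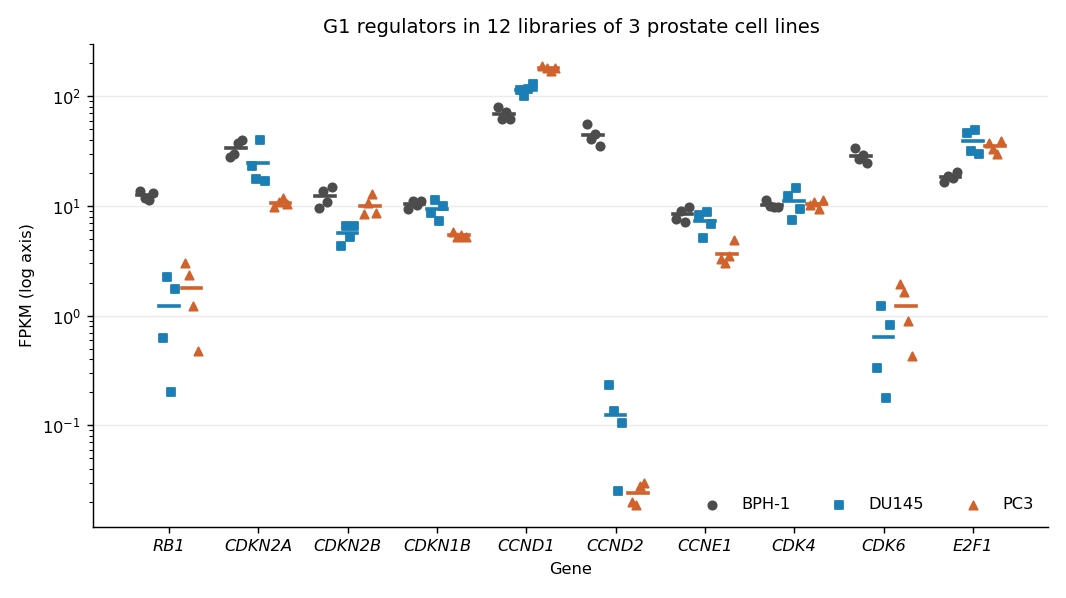
FPKM on a log axis (vertical) of the 10 members (horizontal) in each of the 12 libraries, with a bar at each line's mean. RB1, CCND2 and CDK6 of all BPH-1 libraries (circles) lie far above DU145 (squares) and PC3 (triangles), CCND1 climbs from BPH-1 (mean 69.0) through DU145 (115) to PC3 (182), and the CDK4 points of the 3 lines lie on each other.

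RB1 (ENSG00000139687, chr13:48303751-48481986, plus strand, GRCh38), the gene of the retinoblastoma protein, was lower in both cancer lines. Its FPKM values in replicates 1 to 4 were 13.8, 11.8, 11.3 and 13.2 in BPH-1, 0.620, 2.26, 0.203 and 1.77 in DU145, and 3.02, 2.36, 1.23 and 0.475 in PC3. Every BPH-1 library lay above every library of DU145 and PC3, which overlapped. The mean was 12.5 ± 1.18 (SD, n = 4) in BPH-1, 1.21 ± 0.963 in DU145 and 1.77 ± 1.14 in PC3, so that RB1 was 10.3-fold lower in DU145 and 7.07-fold lower in PC3. On the scale of log2(FPKM + 1), which understates the change of low genes, the difference was -2.72 ± 0.30 (SE) in DU145 (adjusted p = 3.55e-05) and -2.38 ± 0.28 in PC3 (adjusted p = 5.62e-05). PC3 and DU145 themselves did not pass the test (0.33, 95% interval -0.55 to 1.22, adjusted p = 0.518). Behind these values stood 1392 to 1696 reads per BPH-1 library, 25 to 294 per DU145 library and 49 to 311 per PC3 library.

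The RB1 transcripts have a GC content of 39.3%, the lowest of the members. Within DU145, RB1 ranked from replicate 3 through 1 and 4 to 2, the order of the share of reads from genes under 40% GC in those libraries (1.50, 1.97, 3.69 and 4.40%). In PC3 the order was replicate 4, 3, 2 and 1, again that of the share (1.76, 2.52, 3.62 and 3.92%). GC-corrected, the mean of RB1 was 5.12 in BPH-1, 1.48 in DU145 and 2.22 in PC3, and the fold difference shrank to 3.45 for DU145 (log2 difference -1.33, adjusted p = 0.00022) and 2.30 for PC3 (-0.95, adjusted p = 0.00101). RB1 thus stayed lower in both cancer lines by either processing, with a size that depended on it.

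**Figure D2:**
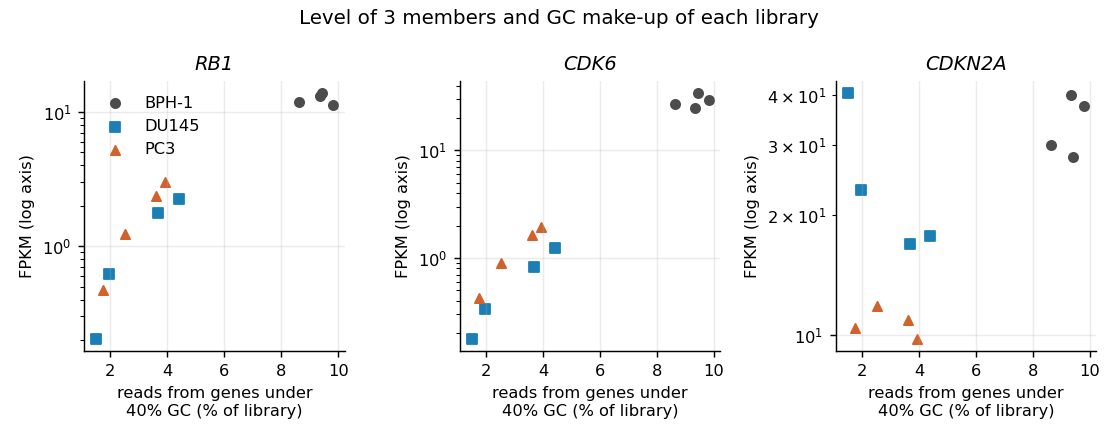
FPKM on a log axis (vertical) of RB1, CDK6 and CDKN2A against the percentage of a library's reads that came from genes under 40% GC (horizontal), for 4 BPH-1 (circles), 4 DU145 (squares) and 4 PC3 (triangles) libraries. RB1 and CDK6 rise with that share among the DU145 and among the PC3 libraries, the BPH-1 libraries stand apart at 8.63 to 9.81%, and CDKN2A, which is rich in GC, has its highest DU145 value (40.3) in the library with the lowest share (1.50%).

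The other pocket proteins, p107 (RBL1) and p130 (RBL2), which bind E2F factors in the manner of the retinoblastoma protein, were lower in both cancer lines as well. RBL1 had a mean FPKM of 13.6 ± 0.799 in BPH-1, 2.09 ± 1.86 in DU145 (log2 difference -2.46) and 2.68 ± 1.65 in PC3 (-2.12). RBL2 went from 7.85 ± 2.98 in BPH-1 to 1.91 ± 1.58 in DU145 (-1.74) and 1.89 ± 0.963 in PC3 (-1.63), and no library of DU145 or PC3 reached the lowest BPH-1 value of either gene. All 4 differences passed the test, also after GC correction, where they were -1.31 and -0.96 for RBL1 and -0.76 and -0.63 for RBL2.

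Among genes with a mean of at least 1 FPKM, the 3 whose centred log2(FPKM + 1) over the 12 libraries came closest to that of RB1, out of 10499 protein-coding genes ranked, were NCKAP1 (root mean square difference 0.111), MOB1A (0.113) and DNAJC13 (0.131). Their transcripts have a GC content of 39.3, 41.4 and 40.9%. MOB1A, for example, had 41.9 ± 1.31 FPKM in BPH-1, 6.18 ± 3.38 in DU145 and 6.90 ± 3.14 in PC3. Of the neighbours of RB1 on chromosome 13, ITM2B fell from 20.0 ± 5.78 FPKM in BPH-1 to 7.21 ± 2.03 in DU145 and 5.86 ± 0.917 in PC3, but after GC correction the difference was 0.49 in DU145 and 0.12 in PC3, neither of which passed the test. RCBTB2 was low throughout (at most 1.13 FPKM) and was lower in both cancer lines under both processings. LPAR6, which lies on the opposite strand within an intron of RB1 and shares no exon base with it, did not reach the read minimum (at most 0.369 FPKM).

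CDKN2A (ENSG00000147889, chr9:21967753-21995301, minus strand) gives p16, an INK4 inhibitor, and ARF from different first exons, and its row adds the transcripts of both. Replicates 1 to 4 had 27.9, 29.9, 37.4 and 39.8 FPKM in BPH-1, 23.1, 17.7, 40.3 and 16.9 in DU145, and 9.77, 10.9, 11.8 and 10.4 in PC3. The PC3 libraries lay below all others, while DU145 replicate 3 was the highest of the 12 and the other 3 DU145 libraries lay under BPH-1. PC3 was 3.15-fold lower than BPH-1 (log2 difference -1.56 ± 0.13, adjusted p = 7.93e-06) and 2.29-fold lower than DU145 (-1.04 ± 0.25, adjusted p = 0.00789). Between DU145 and BPH-1 the difference of -0.52 ± 0.27 did not pass (95% interval -1.11 to 0.08, adjusted p = 0.114). It passed without DU145 replicate 3 (-0.78), with DU145 replicates 1 and 2 alone (-0.70), after GC correction (-1.07, adjusted p = 0.000885) and with all libraries rescaled to the same FPKM sum (-0.76). The CDKN2A transcripts have a GC content of 60.8%, and DU145 replicate 3 had the largest share of reads from genes over 55% GC of all 12 libraries (41.7%).

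FAM83A, IER5 and MIDN followed CDKN2A most closely over the 12 libraries (root mean square differences 0.217, 0.238 and 0.245). IER5, for example, went from 22.3 ± 2.54 FPKM in BPH-1 through 11.7 ± 3.14 in DU145 to 6.06 ± 0.754 in PC3. These distances exceed those of the 3 genes nearest to RB1.

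CDKN2B (ENSG00000147883, chr9:22002903-22009363, minus strand), the gene of the INK4 inhibitor p15 beside CDKN2A, was lowest in DU145. Its values were 9.65, 13.6, 10.9 and 14.9 FPKM in BPH-1, 4.30, 6.65, 5.23 and 6.57 in DU145 and 8.38, 10.6, 12.8 and 8.63 in PC3. No DU145 library reached the lowest of the other 2 lines, which overlapped. DU145 was 2.16-fold lower than BPH-1 (-0.99 ± 0.19, adjusted p = 0.00139), and PC3 was 1.78-fold higher than DU145 (0.73 ± 0.19, adjusted p = 0.00969), a call lost with DU145 replicates 3 and 4 alone (0.68, adjusted p = 0.0507 in limma). PC3 against BPH-1 gave -0.26 (95% interval -0.64 to 0.13, adjusted p = 0.211), which passed only where the libraries were rescaled to the same FPKM sum (-0.51). CDKN2A and CDKN2B, neighbours on 9p21, therefore had their lowest levels in different lines.

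The other annotated neighbours at 9p21 were weakly expressed. MTAP, an enzyme of methionine salvage whose gene lies next to CDKN2A, had 3.12 ± 0.510 FPKM in BPH-1, 1.01 ± 0.216 in DU145 and 1.51 ± 0.440 in PC3. Its fall in both cancer lines (-1.03 and -0.72) went to -0.01 and 0.22 after GC correction, neither past the test. CDKN2B-AS1, an antisense RNA with 341 exon bases opposite CDKN2A, had means of 0.435, 0.232 and 0.132 FPKM in BPH-1, DU145 and PC3, and DMRTA1 had 0.551, 0.237 and 0.403. Both were lower in DU145 than in BPH-1, CDKN2B-AS1 also in PC3, and none of these calls remained after GC correction, where DMRTA1 was higher in PC3 (0.32, adjusted p = 0.00172). The use of strand in counting is not given in the sources used here, so reads of CDKN2A and of CDKN2B-AS1 over those bases cannot be told apart.

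CDKN1B (ENSG00000111276, chr12:12715058-12722371, plus strand) was lower in PC3. It had 9.31, 11.2, 10.2 and 11.1 FPKM in BPH-1, 8.59, 11.4, 7.33 and 10.1 in DU145, and 5.82, 5.25, 5.49 and 5.20 in PC3. The 4 PC3 libraries lay close together and below the 8 others. The gap was 1.92-fold to BPH-1 (-0.83 ± 0.10, adjusted p = 7.54e-05) and 1.72-fold to DU145 (-0.67 ± 0.15, adjusted p = 0.00578). DU145 and BPH-1 overlapped, with a difference of -0.16 (95% interval -0.53 to 0.21, adjusted p = 0.419). These 3 results kept their calls under every alternative tried, except that an absolute log2 difference over 1 was not reached.

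**Figure D3:**
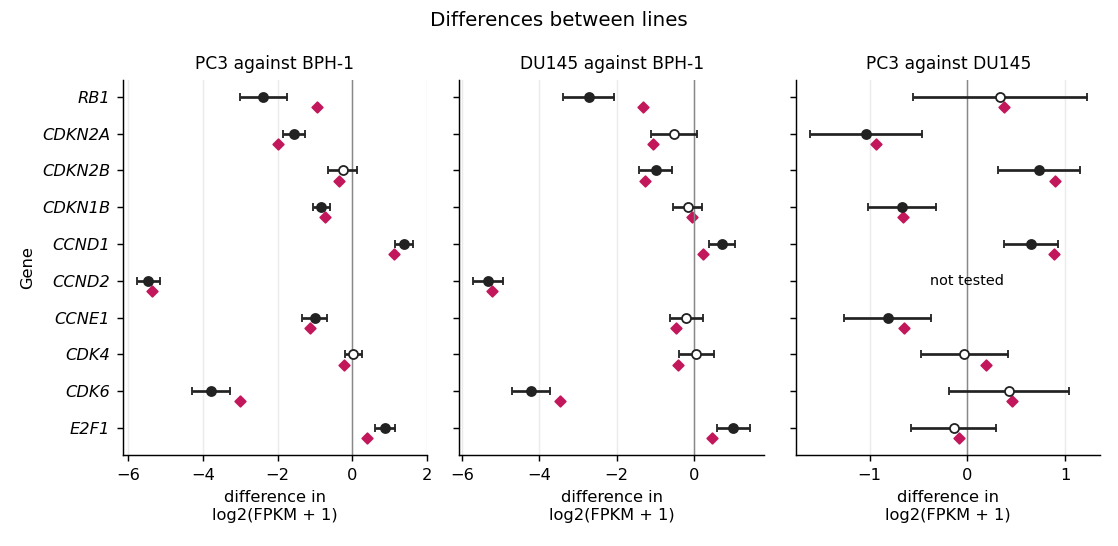
Difference in log2(FPKM + 1) (horizontal) of each member (vertical) in 3 comparisons, the first-named line minus the second, with 95% intervals from limma (circles, filled where the adjusted p is under 0.05) and the value after GC correction (diamonds); the right panel has a finer scale. In both comparisons with BPH-1, CCND2 and CDK6 are the farthest below 0, and RB1 is the member whose diamond lies farthest from its circle.

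Of the D-type cyclins, CCND1 (ENSG00000110092, chr11:69641087-69654474, plus strand) was the most abundant in each line and rose in both cancer lines. Its values were 79.9, 62.0, 72.4 and 61.8 FPKM in BPH-1, 113, 101, 117 and 130 in DU145, and 190, 183, 172 and 182 in PC3. The 3 lines did not overlap. Against BPH-1, CCND1 was 1.67-fold higher in DU145 (0.74 ± 0.15, adjusted p = 0.00185) and 2.63-fold higher in PC3 (1.39 ± 0.11, adjusted p = 4.27e-06), and PC3 was 1.57-fold above DU145 (0.65 ± 0.12, adjusted p = 0.00194). The exact permutation test, two-sided, gave 0.0286 for each of the 3, the smallest p that 4 libraries against 4 allow. CCND1 has 55.9% GC, and its GC-corrected rise in DU145 was 1.18-fold and did not pass (0.23, adjusted p = 0.291), while the rise in PC3 did (1.12, 2.17-fold). LTO1, whose exons share 497 bases with CCND1 on the other strand, had at most 2.83 FPKM in any library.

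CCND2 (ENSG00000118971, chr12:4273772-4305350, plus strand) was abundant in BPH-1 alone of the 3 lines. BPH-1 had 56.2, 41.0, 45.9 and 35.5 FPKM, DU145 had 0.231, 0.135, 0.0251 and 0.106, and PC3 had 0.0199, 0.0188, 0.0279 and 0.0299. These come from 4290 to 6705 reads per BPH-1 library, from 29, 17, 3 and 11 reads in DU145 and from 2, 2, 3 and 3 reads in PC3. PC3 and DU145 replicate 3 were thus at or under the limit of 3 reads. Over the summed reads and per depth, CCND2 was 353 times as high in BPH-1 as in DU145 (95% interval 274 to 463, exact binomial) and 1848 times as high as in PC3 (1005 to 3855), intervals that cover counting error only. Both falls passed limma (-5.33, adjusted p = 3.89e-08 and -5.46, adjusted p = 9.66e-09), but the sizes on that scale depend on the pseudocount and reached -7.71 and -8.47 with a pseudocount of 0.1. DU145 held 5.23 times the reads of PC3 (2.66 to 11.5, counting error only), yet their libraries overlapped and the exact permutation p was 0.0857. With DU145 replicates 1 and 2 alone, its 2 highest libraries, CCND2 passed the read minimum and was called lower in PC3.

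The basal keratins KRT5 and KRT14 had 0.342 and 0.275 FPKM in DU145 replicate 1, 0.499 and 0.442 in replicate 2, 0.0241 and 0.0222 in replicate 3, and both were listed at 0 in replicate 4. CCND2 was highest in the first 2 of these libraries and not at its lowest in replicate 4, and the part of basal transcripts in its DU145 level was not tested. The annotation places AC008012.1 over 989 exon bases of CCND2 on the same strand and CCND2-AS1 over 126 on the other. CCND3, the other D-type cyclin, had means of 3.72 ± 0.182, 4.00 ± 1.23 and 3.42 ± 1.02 FPKM in BPH-1, DU145 and PC3. It passed in no comparison as deposited. After GC correction it was lower in PC3 than in BPH-1 (-0.45, adjusted p = 0.0111 in limma), and the other comparisons did not pass.

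CDK4 (ENSG00000135446, chr12:57747727-57756013, minus strand) was at a like level in the 3 lines. It had 11.3, 9.93, 9.84 and 9.83 FPKM in BPH-1, 12.3, 7.53, 14.8 and 9.49 in DU145, and 10.3, 10.9, 9.41 and 11.3 in PC3. The libraries of all 3 lines overlapped, and those of DU145 spread the widest (SD 3.16 against 0.701 in BPH-1). The differences were 0.03 for PC3 against BPH-1 (95% interval -0.20 to 0.26), 0.06 for DU145 against BPH-1 (-0.39 to 0.51) and -0.03 for PC3 against DU145 (-0.48 to 0.41). After GC correction, DU145 was lower than BPH-1 (-0.41, adjusted p = 0.0144), which turns the sign of that difference, and PC3 against BPH-1 came to -0.22, which did not pass. TSPAN31, with 1369 exon bases opposite CDK4, had at most 1.44 FPKM in any library.

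CDK6 (ENSG00000105810, chr7:92604921-92836594, minus strand), the partner kinase of CDK4, was lower in both cancer lines. Its values were 34.0, 26.9, 29.3 and 24.9 FPKM in BPH-1, 0.336, 1.24, 0.176 and 0.822 in DU145, and 1.95, 1.65, 0.891 and 0.426 in PC3. The lowest BPH-1 library lay far above the highest of the 8 others, and DU145 and PC3 overlapped. CDK6 was 44.7-fold lower in DU145 (-4.22 ± 0.22, adjusted p = 4.81e-07) and 23.4-fold lower in PC3 (-3.79 ± 0.22, adjusted p = 8.22e-07). Its GC content is 43.0%, and among the DU145 and among the PC3 libraries it followed the order described for RB1. GC-corrected, it was 25.4-fold lower in DU145 (-3.46) and 13.1-fold lower in PC3 (-3.00), so that most of the difference from BPH-1 remained on the log scale. PC3 against DU145 gave 0.43 (95% interval -0.18 to 1.04, adjusted p = 0.225) as deposited and 0.46 after GC correction, where it passed (adjusted p = 0.0423).

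The levels of different members can be set side by side only per length. The deposited FPKM rest on a length that adds up all distinct exons of a gene, which counts overlapping exons more than once and was 2.37 times the merged exon length for CDK4 and 1.11 times for CDK6. Per merged length, CDK4 and CDK6 together came to 56.0 ± 5.87 in BPH-1, 26.8 ± 6.96 in DU145 and 26.1 ± 1.97 in PC3. CDK4 made up 41.4 to 45.8% of that sum in BPH-1, 92.9 to 99.4% in DU145 and 91.8 to 98.3% in PC3. The order of the 2 kinases in BPH-1 differed between the processings, and neither settles it. The correction keeps the mean GC trend of all libraries, so it does not put genes of unlike GC content on 1 scale. Per merged length, CDK6 was above CDK4 in each BPH-1 library before GC correction (means 31.9 and 24.2). It was below CDK4 in each after GC correction (19.6 and 29.1), where CDK4 made up 58.4 to 61.4% of a sum of 48.7 ± 6.05. In the cancer lines CDK4 gave nearly all of the sum in every library under both (after correction, 94.2 to 98.0% in DU145 and 92.4 to 96.4% in PC3). For the D-type cyclins the sums were 158 ± 22.0, 179 ± 15.6 and 274 ± 10.7, and CCND1 made up 62.3 to 65.4% in BPH-1, 92.2 to 96.8% in DU145 and 95.5 to 97.7% in PC3. DU145 was thus above BPH-1 in the mean before GC correction, with libraries that overlapped, and below it after. The corrected sums were 179 ± 31.5 in BPH-1, 152 ± 28.2 in DU145 and 272 ± 28.6 in PC3. The 3 pocket proteins summed to 41.5 ± 3.93, 6.47 ± 5.43 and 7.80 ± 4.28, of which RB1 gave between 22.0 and 43.0% in each library. The sum of BPH-1 was 6.41 times that of DU145 and 5.32 times that of PC3, and after GC correction, with sums of 19.5 ± 2.41, 7.19 ± 3.18 and 9.34 ± 2.83, it was 2.72 and 2.09 times. Per merged length and before GC correction, CCND1 ranked first among the 10 members in each line, CDKN2A second in BPH-1 and DU145, and E2F1 second in PC3. The places differ from those of the deposited FPKM, where CCND2 (44.6) was above CDKN2A (33.8) in BPH-1. CCND2 held the third place in BPH-1 and the last in both cancer lines, and RB1 went from the tenth place in BPH-1 (15.5 ± 1.46, beside 16.0 ± 2.27 for CCNE1 and 16.1 ± 1.34 for CDKN1B, within their spread) to the eighth in each cancer line. After GC correction these places were the same, but RB1 in BPH-1 (6.32 ± 0.707) lay well under CDKN1B (15.2 ± 0.919) and CCNE1 (17.6 ± 2.13). As for the kinases, the correction does not settle the order of genes within a line.

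**Figure D4:**
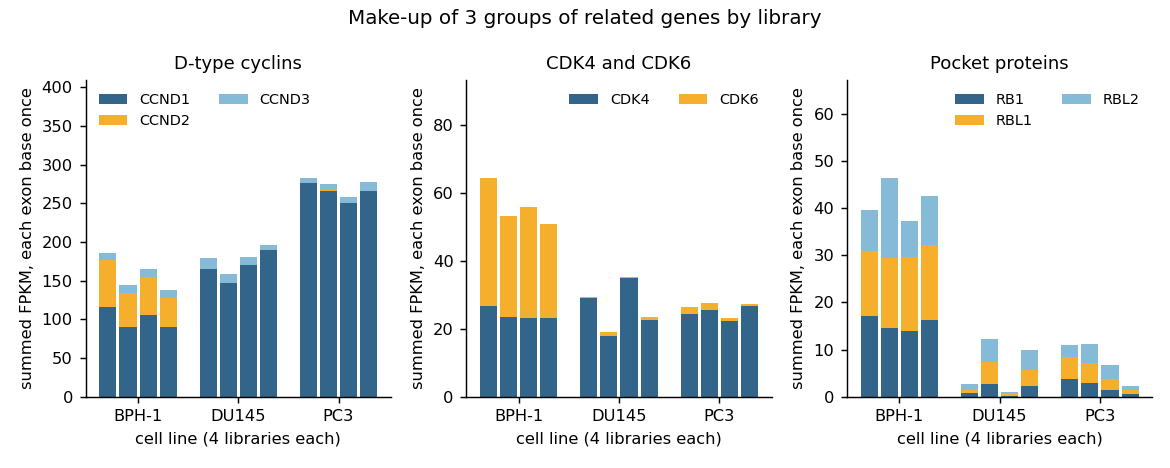
Summed FPKM, not GC-corrected, with each exon base counted once (vertical) of the D-type cyclins, CDK4 with CDK6, and the pocket proteins, 1 bar for each of 4 libraries per line (horizontal), divided by gene. CCND2 and CDK6 take a visible part of the bars of BPH-1 (means 48.3 and 31.9) and almost none in DU145 and PC3, and the bars of the pocket proteins differ widely among the DU145 and PC3 libraries.

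CCNE1 (ENSG00000105173, chr19:29811898-29824308, plus strand), the cyclin that E2F factors switch on and that drives the start of DNA synthesis with CDK2, was lower in PC3. It had 7.67, 9.0, 7.15 and 9.74 FPKM in BPH-1, 8.35, 5.16, 8.82 and 6.80 in DU145, and 3.31, 3.03, 3.49 and 4.90 in PC3. All 4 PC3 libraries lay under the 8 others, the highest of them close below the lowest of DU145. PC3 was 2.28-fold under BPH-1 (-1.01 ± 0.15, adjusted p = 0.000269) and 1.98-fold under DU145 (-0.82 ± 0.20, adjusted p = 0.00747), the latter lost with DU145 replicates 1 and 2 alone (-0.71, adjusted p = 0.0587 in limma). DU145 against BPH-1 gave -0.20 (95% interval -0.62 to 0.23, adjusted p = 0.388), which passed after GC correction (-0.47, adjusted p = 0.0221). CCNE2, the second cyclin E gene, fell from 3.75 ± 0.791 FPKM in BPH-1 to 0.516 ± 0.249 in DU145 (-1.65) and 0.561 ± 0.377 in PC3 (-1.62). Its transcripts hold 38.5% GC, and after GC correction the falls were -0.41 and -0.45, both still past the test.

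E2F1 (ENSG00000101412, chr20:33675683-33686404, minus strand), an activating E2F factor, rose in both cancer lines. Its values were 16.6, 18.8, 18.2 and 20.5 FPKM in BPH-1, 46.7, 31.6, 49.2 and 30.1 in DU145, and 37.7, 33.4, 30.0 and 39.0 in PC3. The lowest cancer library lay above the highest BPH-1 library, and DU145 and PC3 overlapped. E2F1 was 2.13-fold higher in DU145 (1.02 ± 0.19, adjusted p = 0.00117) and 1.89-fold higher in PC3 (0.88 ± 0.11, adjusted p = 0.000112), with -0.14 between PC3 and DU145 (95% interval -0.57 to 0.29, adjusted p = 0.579). The E2F1 transcripts are the richest in GC of the members (62.5%). The GC-corrected rise was 1.40-fold in DU145 (0.47, adjusted p = 0.00321) and 1.33-fold in PC3 (0.38, adjusted p = 0.0129). E2F1, together with CCND1 in PC3, was thus higher than in BPH-1 under both processings.

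The promoters of E2F1 and CCNE1, which E2F factors are known to act on, and of CDK6, which fell in both cancer lines, are shown for their sequence. RefSeq (GRCh38.p14) gave a start for 8 of the 10 members, without CCND1 and CCND2. Those of RB1, CDK4 and CDKN1B lie 172699, 3703 and 2310 bases inside the gene as annotated here, and the other 5 within 93 bases of its start. The 250 bases before each start are printed 5′ to 3′ on the strand of the gene, with the letters TTTCCCGC, TTTGGCGC, TTTCGCGC and TTTGCCGC, forms of the E2F motif, in capitals where found on either strand.
E2F1 (chr20:33686386-33686635, minus strand): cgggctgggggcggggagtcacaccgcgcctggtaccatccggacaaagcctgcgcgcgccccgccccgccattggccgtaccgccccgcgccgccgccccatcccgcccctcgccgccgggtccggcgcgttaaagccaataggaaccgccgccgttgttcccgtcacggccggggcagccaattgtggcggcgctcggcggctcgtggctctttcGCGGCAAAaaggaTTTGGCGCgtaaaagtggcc
CCNE1 (chr19:29811741-29811990, plus strand): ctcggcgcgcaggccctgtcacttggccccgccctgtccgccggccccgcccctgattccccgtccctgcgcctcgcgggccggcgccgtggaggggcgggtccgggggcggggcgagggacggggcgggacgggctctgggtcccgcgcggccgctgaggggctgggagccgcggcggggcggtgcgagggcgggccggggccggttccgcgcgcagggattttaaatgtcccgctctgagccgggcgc
CDK6 (chr7:92836574-92836823, minus strand): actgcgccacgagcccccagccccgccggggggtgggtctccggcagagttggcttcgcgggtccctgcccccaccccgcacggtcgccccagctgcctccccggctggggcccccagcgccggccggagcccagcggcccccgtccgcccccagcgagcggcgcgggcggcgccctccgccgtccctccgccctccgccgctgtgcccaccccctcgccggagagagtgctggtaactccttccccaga
E2F1 held 2 matches, which began 33 and 20 bases before the start, and the other 7 members with an entry held none. Of these 7, the windows of RB1, CDK4 and CDKN1B lie inside the gene, so they say nothing of the bases before its annotated start. Such a match was found in 2.79% of the 35116 promoters of this length. The GC box GGGCGG occurred 5 times before E2F1, 7 times before CCNE1 and 3 times before CDK6 on either strand, sharing no base with the E2F letters, and at least once in 42.6% of all promoters. No member's window held TATAAA, which 10.7% of all promoters did. The 3 windows hold 72.4, 81.2 and 80.0% GC. The matches are a description of the letters and say nothing of binding in these cells.

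Around the members, 32 other regulators of G1 were examined. Between PC3 and BPH-1, 6 were higher and 16 lower in PC3 (68.8% called, median log2 difference -0.45 against -0.13 over all genes tested). Between DU145 and BPH-1, 8 were higher and 11 lower (59.4%, median -0.24 against -0.03). PC3 and DU145 differed in 14 (6 higher and 8 lower in PC3, 43.8%, median 0.00). With DU145 replicates 3 and 4 alone the last count was 8, 1 higher and 7 lower. Of 17146 genes, 2461 were then higher and 3987 lower. The shares with all libraries were near those of all genes. The split depended on scaling. After GC correction it was 10 higher and 14 lower in PC3 and 12 and 11 in DU145. Over all genes the calls were then 5062 and 5352, and 5524 and 5092. With the libraries rescaled to the same FPKM sum, the regulators gave 4 and 18, and 6 and 15. Over all genes that rescaling gave 3437 and 7923, and 4131 and 6569.

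Of the 4 further CDK inhibitors, the INK4 genes CDKN2C and CDKN2D ran opposite to CDKN2A in PC3. CDKN2C, the gene of p18, had 2.51 ± 0.400 FPKM in BPH-1, 4.50 ± 1.06 in DU145 (0.64, adjusted p = 0.0105) and 9.83 ± 2.74 in PC3 (1.60, adjusted p = 4.3e-05). CDKN2D, the gene of p19, rose from 2.38 ± 1.07 to 5.84 ± 1.06 in PC3 (1.08, adjusted p = 0.00459) and had 2.97 ± 0.821 in DU145. CDKN1A, the p21 gene, had 27.6 ± 6.44 FPKM in BPH-1, 26.1 ± 10.1 in DU145 and 5.70 ± 3.0 in PC3, where it was lower than in either line (-2.16 and -2.04). CDKN1C, the gene of p57, was at most 0.845 FPKM. The rises of CDKN2C and CDKN2D and the fall of CDKN1A in PC3 passed after GC correction, while CDKN2C in DU145 did not. CDKN1A in DU145, not called against BPH-1 as deposited (-0.12), was lower after GC correction (-0.65, adjusted p = 0.00688 in limma).

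MDM2, the ubiquitin ligase that ARF holds back, fell from 7.03 ± 0.251 FPKM in BPH-1 to 1.30 ± 1.05 in DU145 (-1.93) and 1.68 ± 0.687 in PC3 (-1.62). It has 41.4% GC, and after GC correction the falls were -0.94 and -0.59 and passed. In PC3, CDKN2A and CDKN1A were each lower than in BPH-1 and in DU145.

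Among kinases and their activators, CDK2, the partner of cyclin E, rose from 4.95 ± 0.552 FPKM in BPH-1 to 11.7 ± 3.27 in DU145 (1.07, adjusted p = 0.00103), and was 6.42 ± 0.373 in PC3 (0.32, adjusted p = 0.0245, not past the test after GC correction). CDK7, the kinase that activates other CDKs, was lower in PC3 than in BPH-1 (2.20 ± 0.476 against 7.17 ± 1.10 FPKM, -1.36). That fall was -0.47 after GC correction, still past the test. In DU145, CDK7 was not called as deposited (-0.37) but was higher than in BPH-1 after GC correction (0.70, adjusted p = 0.0214 in limma). Its cofactor MNAT1, called lower in both cancer lines (-0.80 in DU145 and -0.54 in PC3), turned to a rise after GC correction (1.02 and 1.15).

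The E2F family moved unevenly. E2F2, an activating factor like E2F1, rose from 1.77 ± 1.03 to 5.89 ± 1.07 FPKM in DU145 (1.38) and 3.91 ± 0.225 in PC3 (0.90). E2F5, a factor that works with the pocket proteins, rose from 0.664 ± 0.0192 to 2.54 ± 0.606 in PC3 (1.07) and 1.42 ± 0.455 in DU145 (0.52). E2F7, an E2F repressor, fell from 8.0 ± 0.824 to 0.970 ± 0.892 in DU145 (-2.31) and 3.64 ± 1.38 in PC3 (-1.01). E2F4 was lower in PC3 than in DU145 (7.58 ± 1.12 against 16.7 ± 3.80, -1.02). All of these passed after GC correction.

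Among the genes for protein turnover, SKP2, the part of the ubiquitin ligase that recognises p27, fell from 5.13 ± 0.669 FPKM in BPH-1 to 1.04 ± 0.571 in DU145 (-1.63) and 2.34 ± 0.847 in PC3 (-0.91). CKS1B, its cofactor in that recognition, was higher in DU145 (18.1 ± 3.29) than in BPH-1 (7.57 ± 1.32, 1.16) and in PC3 (8.35 ± 0.502). FBXW7, which recognises cyclin E, fell from 1.62 ± 0.172 to 0.254 ± 0.179 in DU145 (-1.07) and 0.661 ± 0.236 in PC3 (-0.67). CUL1, the scaffold of these ligases, was lower in DU145 (10.9 ± 6.51 against 20.9 ± 3.66, -1.06). After GC correction its difference was -0.25 and did not pass, nor did FBXW7 in PC3. SKP1, of the same list, was called lower in PC3 (-0.55) and turned to a rise past the test after GC correction (0.63). In DU145 it was not called as deposited (-0.53) and was higher after GC correction (0.78).

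**Figure D5:**
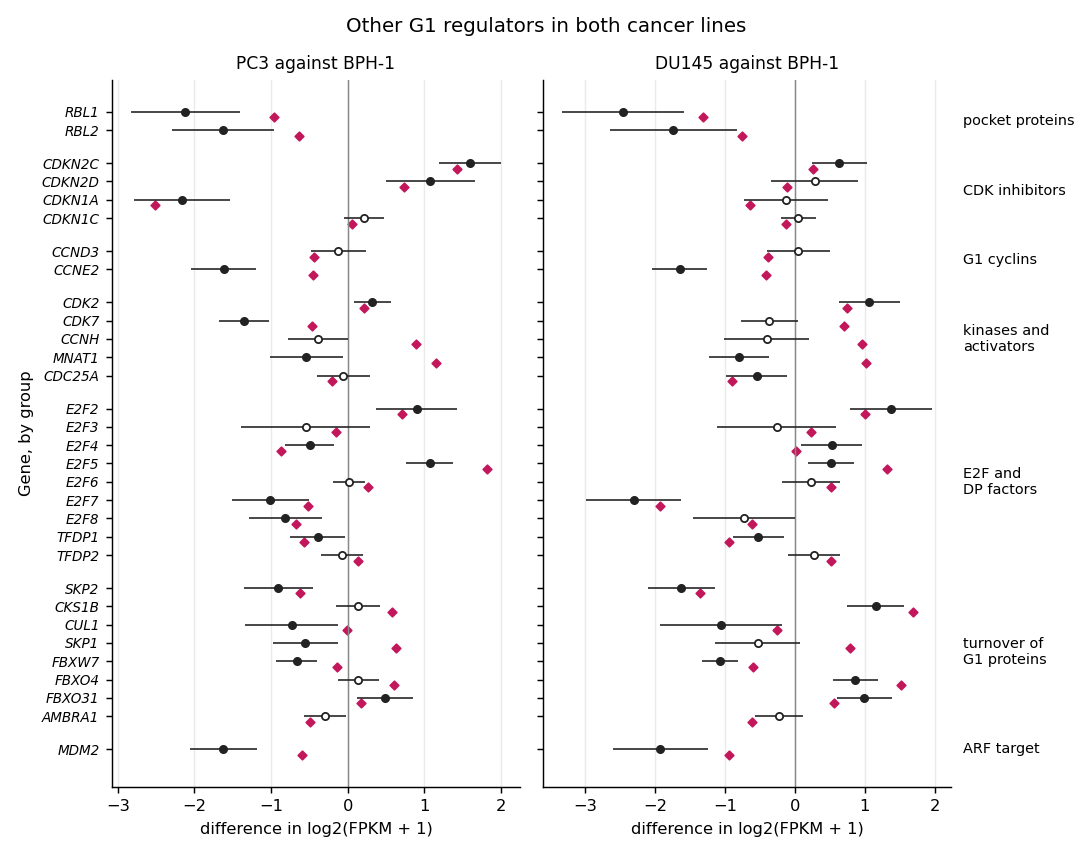
Difference in log2(FPKM + 1) (horizontal) of other G1 regulators (vertical, by group) in PC3 and in DU145 against BPH-1, with 95% intervals from limma (circles, filled where the adjusted p is under 0.05) and the value after GC correction (diamonds). RBL1, RBL2, CCNE2, E2F7 and MDM2 lie below 0 in both panels, CDKN1A in the PC3 panel, and the diamonds of MNAT1, CCNH and SKP1 lie on the other side of 0 from their circles.

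E2F1 rose in both cancer lines, and the 16 genes listed as targets of E2F factors changed in both directions. In PC3 2 were higher and 8 lower than in BPH-1 (median log2 difference -0.59 against -0.13 over all genes tested), and in DU145 3 were higher and 5 lower (-0.35 against -0.03). These are 62.5 and 50% of the list, near or under the 67.6 and 62.7% of all genes, so the counts say nothing particular of the targets. TYMS, which makes thymidylate, rose from 24.4 ± 3.64 FPKM in BPH-1 to 70.8 ± 10.7 in DU145 (1.50) and 75.9 ± 4.62 in PC3 (1.61). TK1, the thymidine kinase, rose from 13.2 ± 2.17 to 31.8 ± 11 (1.17) and 33.7 ± 5.19 (1.29). CCNA2, cyclin A, fell from 31.7 ± 1.72 to 11.1 ± 7.68 (-1.68) and 9.74 ± 3.55 (-1.68). PCNA, the clamp of the DNA polymerases, fell from 155 ± 17.7 to 48.2 ± 16.6 in DU145 (-1.73) and 81.2 ± 19.1 in PC3 (-0.95), and RRM2, a subunit of ribonucleotide reductase, fell from 28.2 ± 2.96 to 13.8 ± 3.28 in DU145 (-1.0). These passed after GC correction, CCNA2 at -0.43 and -0.55. CDK1, at 35.8% GC the poorest in GC of the list, fell to 3.17 ± 1.51 in DU145 (-2.07) and 5.67 ± 2.65 in PC3 (-1.41) from 15.8 ± 2.11, but after GC correction it was 0.24 (not past the test) and 0.90 (higher, adjusted p = 0.00126). After GC correction the count was 3 higher and 6 lower in PC3 and 4 and 8 in DU145. Of 16408 genes in PC3, 5062 were then higher and 5352 lower, and of 17016 in DU145, 5524 and 5092. With the libraries rescaled to the same sum, the targets gave 2 and 12 in PC3 and 2 and 9 in DU145. That rescaling gave 3437 higher and 7923 lower over all genes in PC3, and 4131 and 6569 in DU145.

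Between PC3 and DU145, 3 of the 16 targets were higher and 4 lower in PC3 (43.8%, near the 48.3% of all genes). CDC6, a loading factor of the replicative helicase, was lower in PC3 (11 ± 1.46 against 28.2 ± 4.34 FPKM, -1.28). The count fell from 7 to 4 without any 1 of DU145 replicate 1, DU145 replicate 3, PC3 replicate 1 and PC3 replicate 2. It was also 4 with DU145 replicates 3 and 4 alone, where 6448 of 17146 genes were called. After GC correction it rose to 10 (6 higher and 4 lower), where 9639 of 16420 genes were called (4539 higher and 5100 lower).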

How the data were processed

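RNA-sequencing of 12 libraries (4 each of BPH-1, DU145 and PC3) was analysed. The authors deposited 1 table of normalized values, whose header names no unit and whose values have the form of FPKM. The submitters' processing notes name CASAVA 1.8, HISAT2 2.1.0, edgeR and GRCh38, with no roles, and the counting program, strand use and filters are not given in the sources used here. Columns were assigned by name (0 left unassigned). The 10 members and the gene lists were chosen with earlier results of these data known.

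Gene length (the sum of distinct exons in GENCODE 29) and read depth were recovered from the steps between low FPKM values, of which 92.2 to 93.6% per library were then whole reads within 0.02 reads. RB1 needed a length of 7964 bases, taken from its own steps. The values log2(FPKM + 1) of the lines compared were fitted with limma 3.58.1 (R 4.3.3), its variance following mean level, over genes with 10 reads at the median depth (15341001) in 4 libraries and 15 reads in all, and p-values were adjusted over all genes tested (Benjamini-Hochberg, threshold 0.05). Fold changes are ratios of mean FPKM. Exact permutation tests were two-sided. The GC correction removed from each library the dependence of log2 FPKM on a gene's transcript GC content (spline with 5 degrees of freedom, 12428 genes with a mean of at least 50 reads). It also removes real differences that follow GC content. Genes named beside the members were 10 set regulators, list genes with an adjusted p under 0.05, an absolute log2 difference over 1 and no overlap between lines, genes next to or over CDKN2A, CDKN2B, RB1 and the other members, and the 3 genes most like RB1 and CDKN2A. MNAT1, CCNH and SKP1 were named after their values were seen. Scripts were tested on simulated data. Replicates of a line differed by more than counting noise in every pair (chi-square per gene 17.3 to 219), so none was counted as a duplicate. Intervals and the limit of 3 reads cover counting error only. Python 3.11.15 with numpy 2.4.6, pandas 2.3.3, scipy 1.17.1 and matplotlib 3.10.9 was used. List counts include genes whose own values are not reported here.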

Additional observations from a re-analysis of the deposited data

Results flagged for a closer look

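CDK4 in BPH-1 replicate 1 had 11.3 FPKM, set apart from the other 3 BPH-1 libraries, which lay between 9.83 and 9.93, by a gap larger than Dixon's 95% critical value for 4 samples allows. It was the only one of the 30 groups of 4 libraries tested (10 members in 3 lines) that did so, where chance gives about 1 in 20. The cause was not tested. Leaving this library out changed no call of CDK4.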

How the results depend on the processing

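No member that was called as deposited turned direction under any alternative, while CDK4 in DU145, not called as deposited (0.06), was called lower after GC correction (-0.41). Requiring an absolute log2 difference over 1 left 4429 genes for PC3 and 4894 for DU145 against BPH-1, and 3177 for PC3 against DU145, with 1 member in the last, 11, 11 and 5 other G1 regulators, and 5 E2F targets in PC3 against BPH-1 and 2 in PC3 against DU145. Without a filter on reads, 4 E2F targets and 8978 of 31401 genes differed between PC3 and DU145. Leaving out 1 library at a time gave 8 members in PC3 against BPH-1, 6 to 7 in DU145 against BPH-1 and 5 to 6 in PC3 against DU145, and 4 to 7 E2F targets in the last. The limit on the difference and the filter change the counts by construction, and for the others the cause was not tested. With DU145 replicates 3 and 4 alone, 8 other G1 regulators, 4 E2F targets and 6448 of 17146 genes differed between PC3 and DU145. Of 558 values of single members under an alternative, 539 stayed on their side of the threshold without a called value turning sign, 11 no longer passed (8 of them under the limit on the difference) and 7 newly passed. Library numbers did not pair the samples: deviations of same-numbered libraries correlated at -0.655 to 0.515 between PC3 and DU145, -0.136 to 0.104 between PC3 and BPH-1 and -0.0896 to -0.0638 between DU145 and BPH-1. With the replicate number as a block, 8, 6 and 5 members and 10733, 10131 and 6747 genes differed, which changed no call of a member. Rescaling to the same FPKM sum moved the median log2 difference over all genes from -0.126 to -0.282 in PC3 and from -0.0261 to -0.164 in DU145 against BPH-1, and GC correction moved it to -0.0124 in PC3. For RB1 and CDK6, a pseudocount of 0.1 gave -3.67 and -5.53 in DU145 and -3.02 and -4.62 in PC3, and voom on the recovered reads -3.88, -5.84, -3.12 and -4.76. Depth limits CCND2 in PC3 and DU145, where 2 to 29 reads stood behind each value. Counting each exon base once in place of the deposited length, with or without GC correction, and the use of pairs of DU145 libraries were chosen after seeing the data.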
